A study of Mus musculus with 2 samples.

Results

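The fibroblast growth factor (FGF) genes described here are 4 ligands (Fgf1, Fgf2, Fgf7 and Fgf10), the 4 receptor tyrosine kinases of the family (Fgfr1, Fgfr2, Fgfr3 and Fgfr4) and 2 Sprouty genes (Spry1 and Spry2), 10 of the 19320 features of a single-cell RNA sequencing table of mouse prostate. They were chosen by name, and all 10 were found in the table. The question put to the data was which cells carried the ligand transcripts and which carried the receptors, and whether the levels differed with the transgene reporter in the epithelium and between the 2 barcode sets of the table.

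The study profiled prostate from mice of the genotype R26 mTmG/hAR:Osr1 Cre/+, named hARtg-Osr1Cre in the labels, as 2 libraries, a preinvasive lesion called prostatic intraepithelial neoplasia (PIN) and an adenocarcinoma of the prostate (PCa). In these mice Cre recombinase driven by the Osr1 gene switches on, from the Rosa26 locus, both a human androgen receptor transgene (hARtg) and the membrane green fluorescent protein (mGFP) of the mTmG reporter. Both libraries carry transgene, reporter and Cre, and no library without the transgene was analysed here. The table marks each cell with the suffix 1 or 2, and the labels do not tie a suffix to PIN or PCa. The cells are therefore called set 1 (6332 cells) and set 2 (9410 cells) throughout. Means per cell were 3750.54 genes and 21296.6 captured transcripts in set 1, and 3532.4 genes and 19902.2 captured transcripts in set 2. The paper's cell number and means for PIN match those of the former, and its values for PCa lie close to those of the latter. Set 1 is thus taken to be PIN and set 2 to be PCa, although no label states it.

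FGFs are secreted proteins that bind tyrosine kinase receptors together with heparan sulfate and signal mainly through the RAS and MAP kinase cascade. In the prostate the textbook arrangement is paracrine, with Fgf7 and Fgf10 made by mesenchyme and read by the epithelial IIIb splice form of Fgfr2. Sprouty proteins are induced by receptor signalling and dampen it, so their transcripts are often read together with those of the receptors.

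Levels are given as CPM, the unique molecular identifiers (UMIs, each 1 captured transcript) of a gene per 1000000 UMIs of all genes, pooled over the cells of each class. With 1 library per barcode set there was no replicate check of any difference, no p-value was computed, and every 95% interval covers counting error only. A difference was counted when it reached 2-fold with at least 10 UMIs on both sides together and a mean level of at least 1 CPM.

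After 330 likely doublets were left out, 15412 cells fell into 16 clusters, which were named from lists of marker genes. The fibroblast-like cluster (198 cells in set 1 and 361 in set 2) held 11928 and 13031 CPM of summed fibroblast markers, against 132 and 262 CPM in luminal-like cells. Its smooth muscle markers summed to 3592 CPM in set 1 and 562 CPM in set 2. The epithelium comprised basal-like cells (1702 and 361), luminal-like cells (2272 and 5941), proximal or urethral luminal-like cells (554 and 209) and a cluster named seminal vesicle-like (292 and 1824). The last name was borne out by its markers only in set 2, where they summed to 8324 CPM, while in set 1 they summed to 7.04 CPM, so that the cluster is called cluster 2 below. Endothelium-like cells (40 and 170), leukocyte-like cells (158 and 235), an unnamed cluster led by Ccl5 (957 and 45) and an unnamed cluster led by the mural cell gene Rgs5 (4 and 89) made up the rest. The Ccl5-led cluster showed 6 of 8 leukocyte markers in at least 25% of its set 1 cells, with Gzma and Nkg7 among its leading genes. It was left unnamed for its low depth, a median of 3552 UMIs in set 1. None of its 10 leading genes was a listed leukocyte marker. The luminal-like class drew on different clusters in the 2 sets, mostly clusters 4 (1178 cells), 6 (621) and 9 (438) in set 1 and clusters 0 (2469), 1 (2220) and 7 in set 2. Median depth in luminal-like cells was 28731.5 UMIs in set 1 and 16119 in set 2, in fibroblast-like cells 7330 and 4525, and 67 barcodes occurred in both sets.

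The promoters of Fgf7 and Fgf10 are shown because these ligands share a receptor and were high in the same stromal cluster but parted in the epithelium of set 2. Each window of 300 bases runs from 250 bases before to 50 bases after the RefSeq gene start in GRCm38.p6, at chr2:126034408-126034707 for Fgf7 and at chr13:118714449-118714748 for Fgf10, both on the plus strand.
Fgf7: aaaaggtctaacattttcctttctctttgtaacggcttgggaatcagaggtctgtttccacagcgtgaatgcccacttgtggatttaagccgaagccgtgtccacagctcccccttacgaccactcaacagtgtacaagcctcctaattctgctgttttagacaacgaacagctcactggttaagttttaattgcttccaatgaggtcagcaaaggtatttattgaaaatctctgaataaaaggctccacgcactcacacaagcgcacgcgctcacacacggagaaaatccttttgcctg
Fgf10: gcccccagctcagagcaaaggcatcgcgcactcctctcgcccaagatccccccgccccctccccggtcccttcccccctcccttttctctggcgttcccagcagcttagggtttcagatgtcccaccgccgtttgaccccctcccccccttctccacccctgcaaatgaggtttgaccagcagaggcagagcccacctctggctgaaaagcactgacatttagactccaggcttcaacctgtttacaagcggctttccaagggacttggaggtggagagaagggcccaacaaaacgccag
The G and C bases made up 45.7% of the Fgf7 window and 60.7% of the Fgf10 window. Neither window held, on either strand, the letters AGAACA (the half-site of the steroid receptor element), TATAAA or CTTTGA (the core letters of TCF sites), which 19%, 13.6% and 16% of the 32851 promoter windows of the same length hold. No part is in capitals because no match was found, which says only that these letters are not in these windows.

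Fgf2, Fgf7 and Fgf10 were highest in the fibroblast-like cells of both sets. In GRCm38.p6 they lie at chr3:37348477-37410106, chr2:126034658-126091185 and chr13:118714699-118792573. Fgf2, a broadly acting FGF without a classical signal peptide, stood at 43.9 CPM (95% exact Poisson interval 34.7 to 54.8, 78 UMIs) in the fibroblast-like cells of set 1 and at 46.4 CPM (37.6 to 56.6, 97 UMIs) in those of set 2. Luminal-like cells held 2 and 6 UMIs of Fgf2, or 0.028 and 0.048 CPM, although their class was read far more deeply. The log2 ratio of fibroblast-like over luminal-like cells was 10.63 (8.73 to 13.71) in set 1 and 9.92 (8.74 to 11.40) in set 2. Outside the fibroblast-like cells the highest Fgf2 levels were 2.54 CPM (10 UMIs) in the Ccl5-led cluster of set 1 and 8.14 CPM (6 UMIs) in the Rgs5-led cluster of set 2.

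Fgf7, the keratinocyte growth factor, stood at 32.1 CPM (24.3 to 41.6, 57 UMIs) in the fibroblast-like cells of set 1 and at 27.3 CPM (20.6 to 35.3, 57 UMIs) in those of set 2. Its level in every other class of at least 40 cells was 1.01 CPM or less. Luminal-like cells held 13 and 21 UMIs, or 0.18 and 0.17 CPM. The ratio of fibroblast-like over luminal-like cells was 179-fold in set 1 and 162-fold in set 2, so the contrast was of nearly the same size in both sets.

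Fgf10, the branching factor of prostate and lung buds, stood at 18.0 CPM (12.3 to 25.5, 32 UMIs) in the fibroblast-like cells of set 1 and at 13.9 CPM (9.29 to 19.9, 29 UMIs) in those of set 2. The contrast with the epithelium, unlike that of Fgf7, was of different size in the 2 sets. The ratio over luminal-like cells was 217-fold in set 1 (log2 7.76, 6.49 to 9.31) and 5.76-fold in set 2 (log2 2.53, 1.92 to 3.08). The smaller ratio in set 2 went with a higher luminal-like level, 2.41 CPM (2.14 to 2.70, 301 UMIs) against 0.083 CPM (0.030 to 0.181, 6 UMIs) in set 1.

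Fgf1, the acidic FGF that binds all 4 receptors, was the one ligand of the 4 with its highest levels in epithelium. In set 1 it stood at 34.1 CPM (32.7 to 35.4) in luminal-like, 29.9 CPM in proximal or urethral luminal-like, 29.4 CPM in cluster 2 and 19.5 CPM (17.7 to 21.4) in basal-like cells. In set 2 the order was another one, with 91.5 CPM (80.3 to 104) in basal-like, 38.2 CPM in proximal or urethral luminal-like, 6.71 CPM (6.27 to 7.18) in luminal-like and 4.82 CPM in cluster 2. Fibroblast-like cells held 7.32 CPM (13 UMIs) and 9.09 CPM (19 UMIs), and leukocyte-like cells 2.18 CPM (5 UMIs) and 0, where the limit set by 3 UMIs is 1.49 CPM. The neighbours proximal or urethral luminal-like and cluster 2 in set 1, and fibroblast-like, Rgs5-led and luminal-like in set 2, did not differ beyond their intervals.

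**Figure D1:**
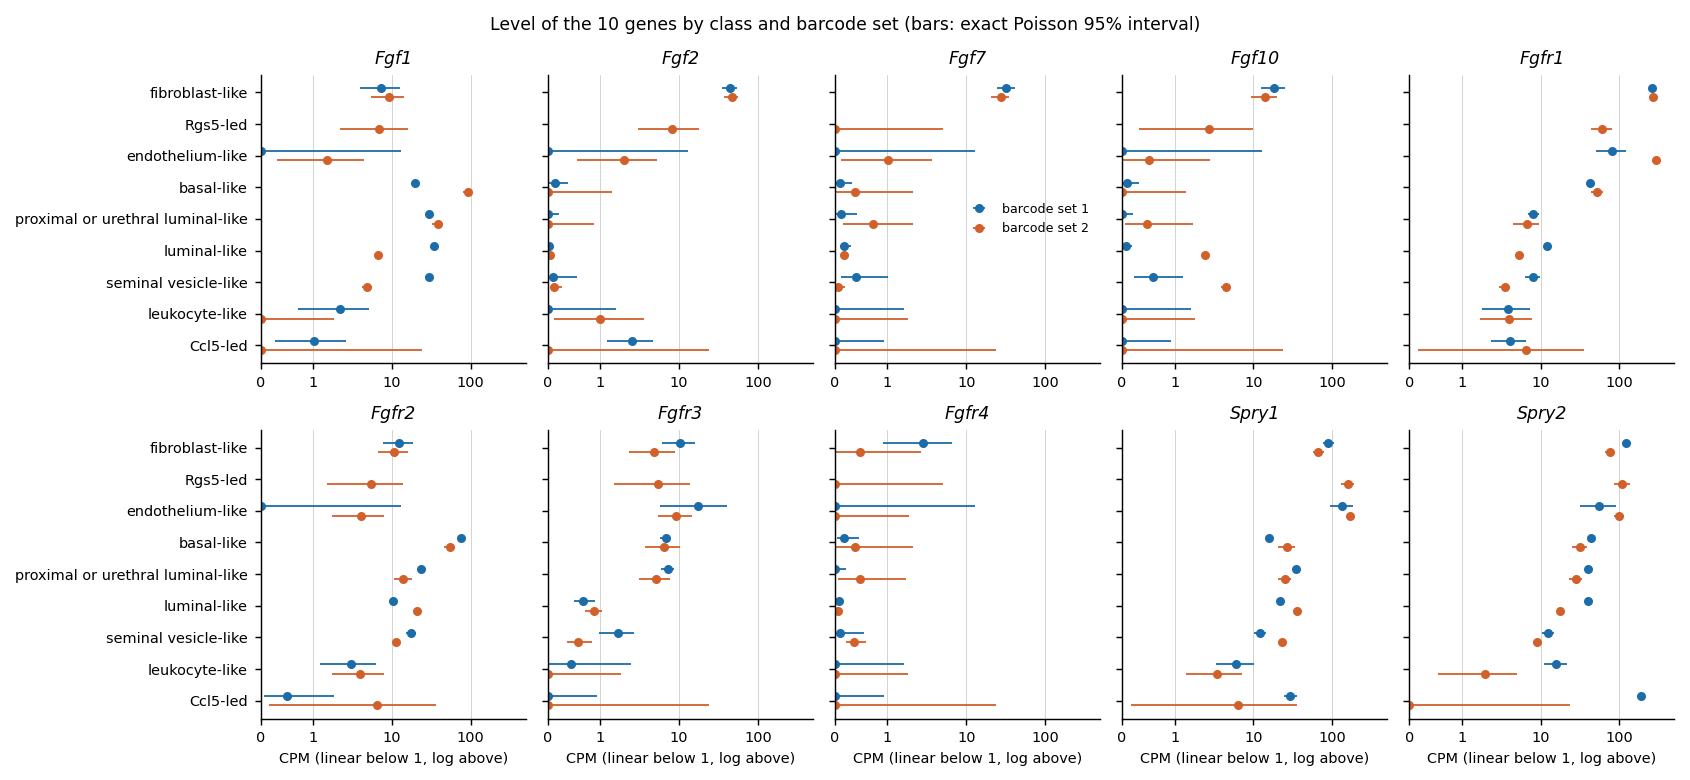
Level in CPM (linear below 1, logarithmic above) of each gene in each cell class, with 1 point per barcode set and bars for the exact Poisson 95% interval. Fgf2 and Fgf7 lie between 27.3 and 46.4 CPM in fibroblast-like cells, Fgf1 and Fgfr2 lie highest in epithelial classes, and Fgfr1 and Spry1 lie highest in fibroblast-like or endothelium-like cells and, for Spry1, in the Rgs5-led cluster.

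The share of all UMIs of a ligand that each class held depends on both its level and its cell number. Fibroblast-like cells, 3.21% of the clustered cells of set 1 and 3.91% of those of set 2, held 83% and 80.8% of the Fgf2 UMIs and 72.2% and 65.5% of the Fgf7 UMIs. Of the Fgf10 UMIs they held 68.1% (Clopper-Pearson interval 52.9 to 80.9) in set 1 and 5.47% (3.69 to 7.76) in set 2. In set 2 the luminal-like cells held 56.8% of the 530 Fgf10 UMIs and cluster 2 held 36.8%. How many cells of each class the dissociation released also sets these shares.

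**Figure D2:**
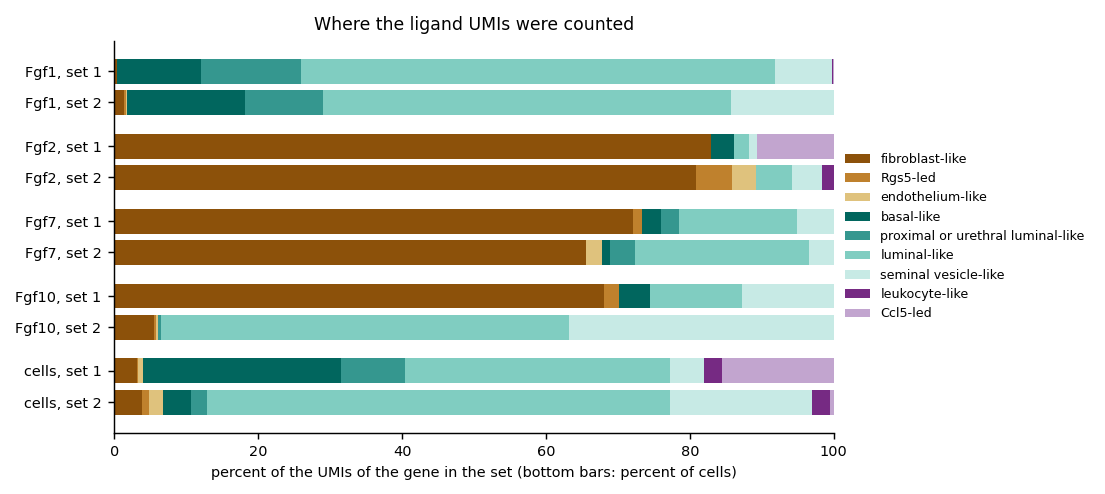
Share of the UMIs of each ligand (percent, horizontal axis from 0) held by each cell class, by barcode set, with the share of cells in the bottom bars. The fibroblast-like part is the largest for Fgf2 and Fgf7 in both sets and for Fgf10 in set 1, while for Fgf10 in set 2 it is 5.47% and the luminal-like part is 56.8%.

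The Fgf10 transcripts of the set 2 epithelium were spread thinly over many cells. A UMI was seen in 237 of 5941 luminal-like cells (3.99%), of which 189 held 1 UMI, 36 held 2 and 12 held 3 or more, with at most 5 in a cell. Thinned to 3000 UMIs a cell, the share was 0.526%, and no UMI was seen in the 158 and 235 leukocyte-like cells, where 3 UMIs would be 1.31 and 1.49 CPM. In fibroblast-like cells the share was 10.6% in set 1 and 7.76% in set 2, or 5.95% and 3.67% after thinning.

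Other fibroblast transcripts were read in the same luminal-like cells. Summed fibroblast markers stood at 162 CPM in the 237 cells with Fgf10 and at 269 CPM in the 5704 without it, while the median depth was 30733 and 15704 UMIs. A UMI of a fibroblast marker was seen in 67.5% of the cells with Fgf10 and in 68.3% of those without it, and Fgf7 stood at 0.50 CPM (4 UMIs) and 0.145 CPM (17 UMIs). Per Fgf7 UMI, fibroblast-like cells held 0.561 Fgf10 UMIs in set 1 and 0.509 in set 2, a ratio alike in both sets. Luminal-like cells held 0.462 per Fgf7 UMI in set 1 but 14.3 in set 2, and cluster 2 held 1.5 and 65 (195 against 3 UMIs). The clusters found in both sets showed the same direction, with cluster 6 at 0.175 CPM (3 UMIs) in set 1 and 1.47 CPM (10 UMIs) in set 2 and cluster 4 at 0 UMIs in set 1 and 1.61 CPM (6 UMIs) in set 2. The set 2 clusters 0, 1 and 7 stood at 3.52, 1.47 and 2.55 CPM, so no single luminal-like cluster carried the signal. Basal-like cells of set 2 held 0 Fgf10 UMIs, where 3 UMIs would be 1.13 CPM, which is 2.13-fold below luminal-like cells.

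Fgfr1, the receptor of mesenchyme, was highest in fibroblast-like and endothelium-like cells. Fibroblast-like cells stood at 259 CPM (236 to 284) in set 1 and 267 CPM (245 to 290) in set 2, and endothelium-like cells at 80.2 CPM (50.9 to 120) and 288 CPM (265 to 313). A UMI of Fgfr1 was seen in 72.7% and 64.3% of fibroblast-like cells, against 2.53% and 2.98% of leukocyte-like cells with median depths of 11389.5 and 7678 UMIs. Among epithelial classes basal-like cells were highest, with 42.4 CPM (39.8 to 45.2) and 52.7 CPM (44.3 to 62.2). Luminal-like cells stood at 12.1 and 5.31 CPM, beside 3.92 and 3.98 CPM in leukocyte-like cells.

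Fgfr2 (chr7:130162451-130266808), whose IIIb form binds Fgf7 and Fgf10, was highest in basal-like cells in both sets. It stood at 75.1 CPM (71.5 to 78.8) in the basal-like cells of set 1 and at 54.2 CPM (45.7 to 63.8) in those of set 2. The other epithelial classes followed, with 23.4 and 13.9 CPM in proximal or urethral luminal-like cells, 17.6 and 11.1 CPM in cluster 2 and 10.2 and 20.9 CPM in luminal-like cells. Fibroblast-like cells held 12.4 CPM (7.77 to 18.8) and 10.5 CPM (6.59 to 15.9). The Fgfr2 log2 ratio of fibroblast-like over luminal-like cells was 0.28 (-0.40 to 0.89) in set 1, an interval spanning 0, and -0.99 (-1.66 to -0.39) in set 2, where luminal-like cells were 1.98-fold higher. Counts from the 3′ ends of transcripts do not separate the IIIb and IIIc forms.

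Fgfr3 was low in every class, at most 17.4 CPM (5 UMIs) and 9.11 CPM (18 UMIs), both in endothelium-like cells. Luminal-like cells stood at 0.68 and 0.87 CPM and cluster 2 at 1.69 and 0.569 CPM. The Ccl5-led cluster held 0 UMIs in both sets, and leukocyte-like cells held 1 UMI (0.435 CPM) in set 1 and 0 in set 2. Basal-like cells stood at 6.83 and 6.40 CPM and proximal or urethral luminal-like cells at 7.15 and 5.02 CPM, values whose intervals overlapped within each set. Fgfr4 was barely seen, with 5 UMIs (2.82 CPM) and 1 UMI in fibroblast-like cells, 16 UMIs (0.364 CPM) in cluster 2 of set 2 and at most 8 UMIs in any other class. The log2 ratio of Fgfr4 in fibroblast-like over basal-like cells of set 1 was 3.97 (1.75 to 6.30), and over luminal-like cells it was 5.35 (3.23 to 7.47) on 5 and 5 UMIs. In set 2 cluster 2 lay above luminal-like cells by 2.51 (1.2 to 3.94), and the other neighbours had an interval spanning 0 or too few UMIs for a ratio.

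Of the feedback genes, Spry1 was highest in endothelium-like cells, with the Rgs5-led cluster of set 2 close to them. It stood at 133 CPM (93.8 to 182) and 168 CPM (150 to 187) in endothelium-like cells, at 157 CPM in the Rgs5-led cluster of set 2 and at 89.6 and 67.0 CPM in fibroblast-like cells. Epithelial classes lay between 12.1 and 35.5 CPM. Spry2 was highest in set 1 in the Ccl5-led cluster, at 187 CPM (174 to 201), followed by fibroblast-like cells at 123 CPM (107 to 140) and endothelium-like cells at 55.8 CPM (31.9 to 90.6). In set 2 the Rgs5-led cluster stood at 109 CPM (86.1 to 135) and endothelium-like cells at 98.2 CPM (84.9 to 113), which did not differ beyond counting error. Fibroblast-like cells of set 2 followed at 76.5 CPM (65.1 to 89.3), below endothelium-like cells by a log2 difference whose interval runs from 0.05 to 0.67. Basal-like cells held 43.3 and 31.6 CPM, luminal-like cells 39.6 and 17.9 CPM, and cluster 2 held 12.4 and 9.05 CPM.

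Set against luminal-like cells, 8 of the 10 genes compared were at least 2-fold higher and 1 lower in the fibroblast-like cells of set 1, where 25.5% of 12610 features were higher and 22.1% lower, 47.6% together. In set 2 it was 6 of 9 higher and 0 lower, against 27.4% and 16.3% of 12637 features (43.7% together), at median depths of 4525 and 16119 UMIs. The median log2 ratio over the genes compared was 4.17 in set 1 and 2.46 in set 2, beside -0.10 and 0.07 over all features. Fgf2, Fgf7, Fgf10, Fgfr1, Fgfr3 and Spry2 were higher in both sets. Fgfr1 was 21.5-fold higher in set 1 (log2 4.43, 4.26 to 4.59) and 50.2-fold higher in set 2 (log2 5.65, 5.49 to 5.82), and Spry2 was higher by 1.63 and 2.10 on the log2 scale. Spry1 was higher by 2.04 in set 1 and by 0.91 in set 2, under the 2-fold limit. Fgf1 was 4.65-fold lower in set 1 (log2 -2.22, -3.13 to -1.44) and 1.35-fold higher in set 2, where the interval spans 0 on the log2 scale (-0.30 to 1.09).

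Basal-like over luminal-like cells gave 3 of 6 genes higher and 0 lower in set 1, where 11.4% of 11523 features were higher and 25.8% lower, 37.2% together. In set 2 it gave 4 of 7 higher and 1 lower (Fgf10), where 21.6% of 11582 features were higher and 27.5% lower, 49.1% together. The Fgf10 call rests on 0 UMIs in basal-like cells, set to 3 UMIs for the ratio. The 3 genes higher in both sets were all receptors. Fgfr2 was higher by 2.88 (2.75 to 3.0) in set 1 and by 1.38 (1.13 to 1.62) in set 2 on the log2 scale. Fgfr1 was higher by 1.82 (1.68 to 1.95) and 3.31 (3.04 to 3.58), and Fgfr3 by 3.33 (2.86 to 3.83) and 2.88 (2.04 to 3.62). Spry1 and Spry2 stayed within 2-fold in both sets, with -0.45 and -0.43 for Spry1 and 0.13 and 0.82 for Spry2. Fgf1 had opposite signs, -0.81 (-0.96 to -0.66) in set 1 and 3.77 (3.56 to 3.98) in set 2.

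Receptor and ligand transcripts were also counted together within cells. Of the basal-like cells with Fgfr2, 42.5% in set 1 and 33.7% in set 2 also held Fgfr1, against 28.4% and 26.5% of those without Fgfr2. The cells with Fgfr2 were also the deeper ones, with medians of 12227 against 9245.5 UMIs in set 1 and 6347.5 against 5253 in set 2, and the part of depth in these shares was not tested. Of the fibroblast-like cells with Fgf7, 19.5% and 18.6% also held Fgf10, against 8.28% and 6.29% of those without it, and 82.9% and 65.1% held Fgfr1, against 70.1% and 64.2% of those without it. The fibroblast-like cells with Fgf7 had median depths of 8927 and 5621 UMIs, against 7237 and 4347 in those without it, and the part of depth in these shares was not tested. Several other pairs had the same direction in both sets, among them Fgfr2 with Fgf1 and with Fgfr3 in basal-like cells. Fgfr1 was seen in 86% and 71.1% of fibroblast-like cells with Fgf2, against 68.2% and 62.5% of those without Fgf2. Their median depths were 8790 and 5398.5 UMIs, against 6814 and 4165 without Fgf2, and the part of depth was not tested. Fgf2 with Fgf7 and Fgf10 with Fgfr1 had no common direction. Fgf7 was seen in 18% and 14.5% of fibroblast-like cells with Fgf2, against 21.6% and 11.2% of those without Fgf2. Fgfr1 was seen in 76.2% and 60.7% of those with Fgf10, against 72.3% and 64.6% of those without Fgf10.

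**Figure D3:**
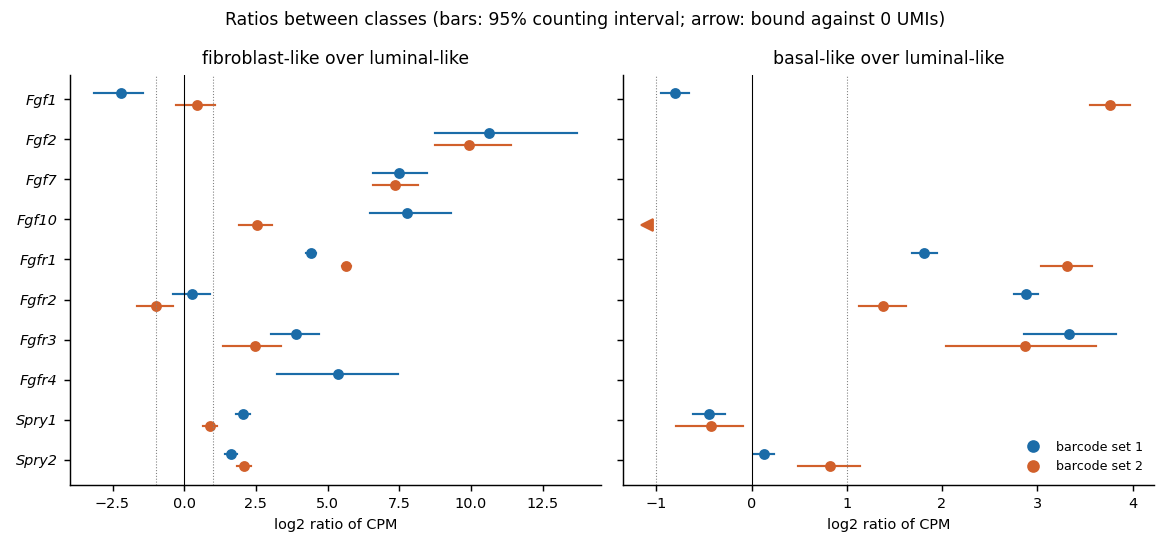
Log2 ratio of CPM with its 95% interval for each gene compared, fibroblast-like over luminal-like and basal-like over luminal-like cells, by barcode set. Fgf2 lies near 10 and Fgf7 near 7 in both sets, the 3 receptors lie above 1 for basal-like cells, and Fgf1 for basal-like cells lies at -0.81 in set 1 and 3.77 in set 2.

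Between the 2 sets the fibroblast-like levels differed little. Of 9 genes compared, 1 was at least 2-fold lower in set 2 (Fgfr3, log2 -1.08, -2.36 to 0.11, on 10 and 18 UMIs) and 0 were higher, where 10% of 11357 features were higher and 8.49% lower, 18.5% together. Fgf2, Fgf7, Fgf10 and Fgfr1 differed by 0.08, -0.24, -0.38 and 0.04 on the log2 scale, all with intervals spanning 0. Spry2 was lower in set 2, by a log2 ratio of -0.68 (-0.99 to -0.38). The interval of Fgf10 (-1.16 to 0.39) leaves room for a difference of more than 2-fold. The smooth muscle markers, which summed to 3592 CPM in set 1 and 562 CPM in set 2 with 0 of 6 higher in set 2, moved between the same cells, and their part in these ratios was not tested.

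In luminal-like cells 5 of 6 genes passed 2-fold between the sets, 2 higher and 3 lower in set 2, against 13.2% of 11647 features higher and 21.5% lower, 34.7% together. Fgf10 was higher by 4.86 (3.72 to 6.32) and Fgfr2 by 1.03 (0.91 to 1.15). The 3 lower genes were Fgf1 at -2.34 (-2.46 to -2.23), Fgfr1 at -1.18 (-1.33 to -1.03) and Spry2 at -1.14 (-1.22 to -1.06). The leukocyte markers of these luminal-like cells summed to 3758 CPM in set 1 and 389 CPM in set 2, with 2 of 8 higher in set 2, and the seminal vesicle markers to 0.332 and 356 CPM, with 6 of 6 higher. The basal markers summed to 1045 and 72.4 CPM (1 of 7 higher in set 2), the proximal or urethral luminal markers to 3269 and 412 CPM (0 of 7) and the luminal markers to 38203 and 19132 CPM (2 of 9). Their part in these ratios was not tested, and the median over all features was -0.19. Cluster 2 gave 1 of 7 higher (Fgf10, 2.90) and 3 lower (Fgf1, -2.61, Fgfr1, -1.18, and Fgfr3, -1.57), where 10.9% of 11444 features were higher and 15.9% lower, 26.8% together, but its cells carried seminal vesicle markers in set 2 alone.

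Within clusters found in both sets, the luminal-like differences were not all present. Fgf1 stood at 38.0 CPM (35.2 to 41.1) in cluster 6 of set 1 and at 48.4 CPM (43.3 to 53.9) in cluster 6 of set 2, with no drop. In cluster 4 it stood at 26.6 CPM and 2.42 CPM (9 UMIs), while clusters 0, 1 and 7 of set 2 stood at 6.76, 1.62 and 4.06 CPM. Fgfr2 was likewise near level within clusters, at 12.9 and 11.6 CPM in cluster 4 and at 5.54 and 7.50 CPM in cluster 6, and higher in clusters 0, 1 and 7 at 21.9, 23.8 and 18.6 CPM. Spry2 went from 49.8 to 10.5 CPM in cluster 4 and from 41.1 to 31.3 CPM in cluster 6.

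**Figure D4:**
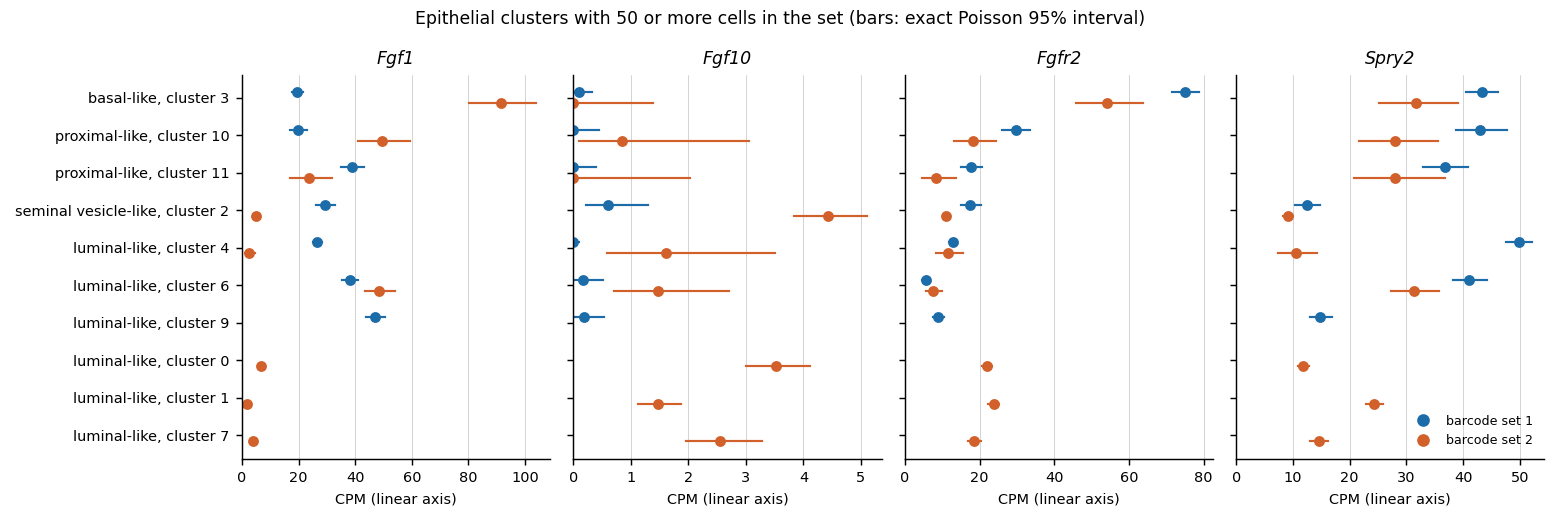
Level in CPM with exact Poisson 95% intervals of Fgf1, Fgf10, Fgfr2 and Spry2 in each epithelial cluster and barcode set. Fgf1 is near 40 to 50 CPM in cluster 6 of both sets and 26.6 against 2.42 CPM in cluster 4, and Fgf10 is at or above 1.47 CPM in the luminal-like clusters of set 2 and at or below 0.18 CPM in those of set 1.

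In basal-like cells 1 of 6 genes passed 2-fold between the sets, Fgf1, higher in set 2 by 2.23 (2.00 to 2.46), where 8.28% of 11221 features were higher and 7.4% lower, 15.7% together. The share of basal-like cells with an Fgf1 UMI was 16.4% in set 1 and 30.2% in set 2, at median depths of 10861.5 and 5479 UMIs, and thinned to 3000 UMIs it was 5.06% and 20.4%. Leukocyte markers in these cells summed to 2420 CPM in set 1 and 55.3 CPM in set 2, with 4 of 8 higher in set 2, and their part in the Fgf1 difference was not tested. Fgfr1, Fgfr2, Fgfr3, Spry1 and Spry2 stayed within 2-fold, between -0.47 and 0.72. In proximal or urethral luminal-like cells 0 of 6 genes passed 2-fold, where 9.37% of 11787 features were higher and 6.46% lower, 15.8% together. In leukocyte-like cells 1 of 4 did, Spry2 at -2.98 (4 against 36 UMIs), where 10.9% of 10813 features were higher and 23.9% lower, 34.9% together.

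The reporter split the epithelium by EGFP, the feature of the table that reads mGFP. Leukocyte-like cells held 88.8 CPM of EGFP in set 1 and 1039 CPM in set 2, so cells at or below the 95th percentile of leukocyte-like cells, 183 CPM in set 1 and 3854 CPM in set 2, were taken as EGFP-low. EGFP-high cells were those above the median of the remaining epithelial cells, 4988 and 10071.5 CPM. The EGFP levels of the 2 sets are not on a common footing.

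In luminal-like cells of set 1, 69 EGFP-high cells were set against 2028 EGFP-low cells, and 2 of 6 genes were at least 2-fold higher and 0 lower, where 6.18% of 11568 features were higher and 3.09% lower, 9.27% together. Fgfr2 stood at 18.9 CPM (43 UMIs) in EGFP-high and 9.37 CPM (598 UMIs) in EGFP-low cells, a log2 ratio of 1.01 (0.53 to 1.46). Fgfr3 stood at 2.19 CPM (5 UMIs) and 0.595 CPM (38 UMIs), a log2 ratio of 1.88 (0.18 to 3.23). Fgf1, at 35.5 and 34.0 CPM, and Spry1, at 21.5 and 21.8 CPM, had intervals spanning 0. The luminal markers summed to 24428 CPM in EGFP-high and 39351 CPM in EGFP-low cells, with 3 of 9 higher in EGFP-high cells, and their part in the receptor values was not tested. The Fgfr2 ratio fell below the 2-fold limit when the cells of intermediate EGFP were added, at 0.82, when the cycling cluster was left out, at 0.88, and when doublets were kept, at 0.91. It also fell below the limit at resolution 1.0 and within clusters with all cells above the EGFP limit. Fgfr3 did not reach the minimum for a comparison with intermediate cells added or with the cycling cluster left out. Its ratio lay between 1.53 and 2.20 in the alternatives where it was compared.

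In luminal-like cells of set 2, 2554 EGFP-high cells were set against 330 EGFP-low cells, and 1 of 6 genes was higher and 2 lower, where 10.9% of 11399 features were higher and 16.9% lower, 27.8% together. Spry1 stood at 37.1 CPM in EGFP-high and 13 CPM in EGFP-low cells, a log2 ratio of 1.52 (1.2 to 1.85). Fgf1 stood at 4.04 and 43.8 CPM, a log2 ratio of -3.44 (-3.71 to -3.17). Spry2 stood at 15 and 32.8 CPM, a log2 ratio of -1.13 (-1.35 to -0.91). Fgfr2 was 1.94-fold higher in EGFP-high cells, at 20.9 and 10.8 CPM, just under the limit. Fgf10 was 1.36-fold higher with an interval spanning 0 (-0.54 to 1.62). Of the 330 EGFP-low cells 221 belonged to cluster 6, the cluster with the highest Fgf1 level of set 2 luminal-like cells, and within cluster 6 the Fgf1 ratio of all cells above the limit was -0.61 (-1.05 to -0.19). Within clusters 0, 1 and 6 the Spry1 ratios of all cells above the limit were 0.64, 0.35 and 0.41, all with intervals spanning 0. The luminal markers summed to 20047 CPM in EGFP-high and 30876 CPM in EGFP-low cells, with 2 of 9 higher in EGFP-high cells. The basal markers summed to 26.2 and 612 CPM, with 1 of 7 higher, and the seminal vesicle markers to 335 and 78.0 CPM, with 6 of 6 higher. Their part in these differences was not tested. With the limit at the 99th percentile the Spry1 and Spry2 calls ended, at 0.37 and -0.67, the Fgf1 ratio was -2.0, the Fgf10 ratio -0.60 and the Fgfr2 ratio -0.03. With doublets kept Spry1 was at 0.73, Spry2 at -0.86 and Fgfr2 at 0.34.

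Compared within single clusters, with all cells above the limit against the EGFP-low cells of the same cluster, Fgfr2 was higher in the luminal-like clusters of set 1. It stood at 18.5 against 12.4 CPM in cluster 4 (log2 0.58, 0.16 to 0.98), at 17.1 against 6.61 CPM in cluster 9 (1.37, 0.88 to 1.85) and at 9.23 against 5.16 CPM in cluster 6 (0.84, -0.06 to 1.65, an interval spanning 0). In the set 2 clusters 0, 1 and 6 the Fgfr2 ratios of 0.33, 0.33 and -0.05 all had intervals spanning 0. The rise was not confined to luminal-like clusters, as proximal cluster 11 of set 1 stood at 26.3 against 16.4 CPM (0.68, 0.08 to 1.24). Proximal cluster 10 (0.28, -0.12 to 0.66) and cluster 2 (-0.17, -0.78 to 0.49) of set 1 had intervals spanning 0. In basal-like cells Fgfr2 did not differ beyond counting error, with 71.9 against 77.0 CPM in set 1 (-0.10, -0.24 to 0.05) and 49.4 against 58.9 CPM in set 2 (-0.25, -0.75 to 0.24).

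In basal-like cells of set 1, 333 EGFP-high cells were set against 1142 EGFP-low cells, and 1 of 6 genes was lower and 0 higher, where 5.35% of 10955 features were lower and 4.34% higher, 9.69% together. Spry2 stood at 26.2 CPM (124 UMIs) in EGFP-high and 54.4 CPM (759 UMIs) in EGFP-low cells, a log2 ratio of -1.05 (-1.34 to -0.78). Below the limit, Fgfr1 stood at 29.0 and 48.9 CPM (-0.75, -1.03 to -0.49), and Fgf1 stood at 27.3 and 15.1 CPM (0.85, 0.52 to 1.17). In set 2, 90 EGFP-high cells were set against 202 EGFP-low cells, and 3 of 6 genes were lower and 0 higher, where 7.69% of 8097 features were lower and 3.8% higher, 11.5% together. Spry2 stood at 11.7 CPM (7 UMIs) and 38.0 CPM (51 UMIs), a log2 ratio of -1.70 (-3.08 to -0.55). Spry1 stood at 15 CPM (9 UMIs) and 35.0 CPM (47 UMIs), a log2 ratio of -1.22 (-2.43 to -0.17). Fgfr3 rested on 1 and 9 UMIs, and its interval spans 0 (-7.46 to 0.85). The basal markers summed to 9647 CPM in EGFP-high and 16729 CPM in EGFP-low cells of set 1, with 0 of 7 higher, and to 8764 and 10573 CPM in set 2, and their part in the Spry2 difference was not tested. The Spry2 call in set 1 lay at the limit and ended at -0.98 with doublets kept. With all cells above the EGFP limit the set 2 ratio was -0.60 (-1.28 to 0.06), an interval spanning 0. The sum of the leukocyte markers was 3713 CPM in EGFP-high and 2051 CPM in EGFP-low cells of set 1, but only 2 of the 8 markers were higher in EGFP-high cells.

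Spry2 was thus lower in EGFP-high cells in the basal-like comparison of both sets and in the luminal-like comparison of set 2, and lower without passing 2-fold in luminal-like cells of set 1 (29.4 against 41.0 CPM, -0.48, -0.85 to -0.13). It was not lower in every cluster. The ratio of all cells above the limit was 0.55 (0.14 to 0.96) in luminal-like cluster 9 and 0.85 (0.46 to 1.23) in proximal cluster 11 of set 1. In proximal cluster 10 of set 1 it was -1.17 (-1.60 to -0.76). It was also below 0 beyond its interval in clusters 4 (-0.50), 6 (-0.52) and 2 (-0.78) of set 1. The same held in clusters 1 (-1.24) and 6 (-0.60) of set 2, while cluster 0 (-0.99) and proximal cluster 10 (-0.46) of set 2 had intervals spanning 0. Spry1 had no common direction either, at -1.0 (-1.53 to -0.51) in cluster 4 and 0.45 (0.10 to 0.80) in cluster 9 of set 1.

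**Figure D5:**
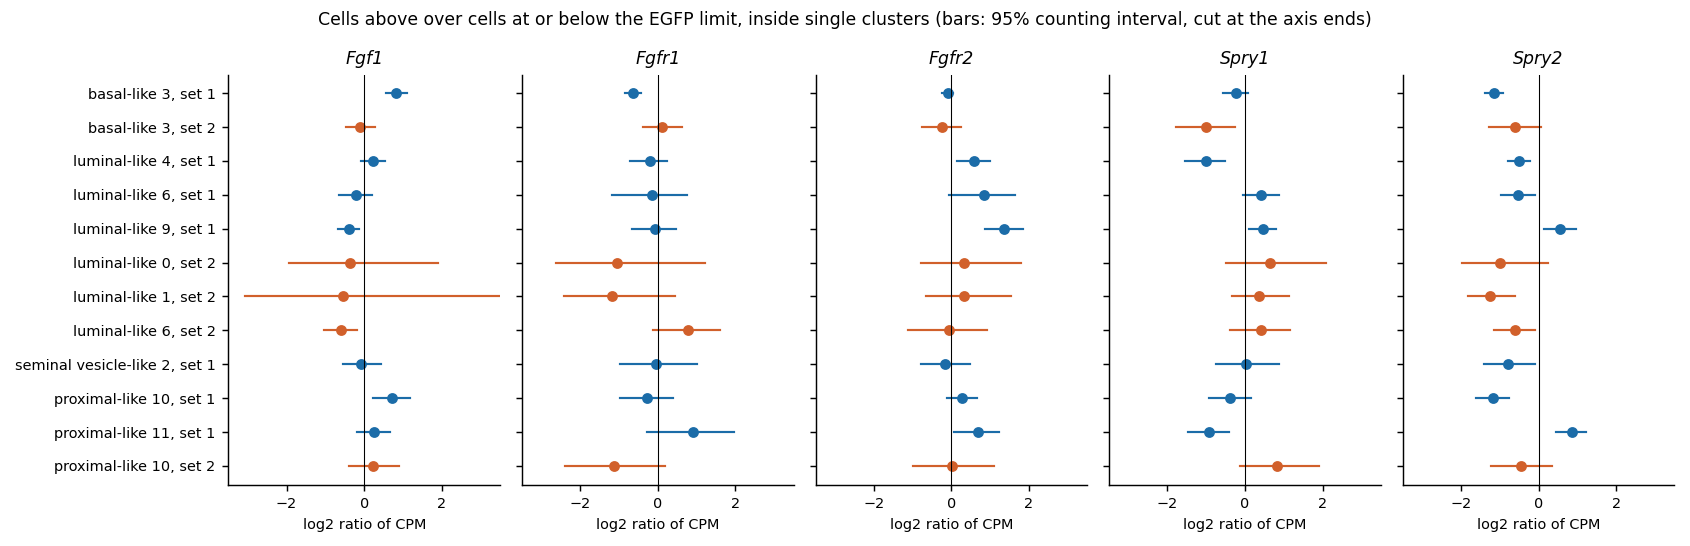
Log2 ratio with 95% interval of CPM in cells above the EGFP limit over EGFP-low cells of the same epithelial cluster, by gene and barcode set, for clusters with at least 30 cells on each side. Fgfr2 lies at 0.58, 0.84 and 1.37 in luminal-like clusters 4, 6 and 9 of set 1. Spry2 lies below 0 in basal-like cells of both sets, with an interval spanning 0 in set 2, and above 0 in clusters 9 and 11 of set 1.

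Of 69 other genes of the FGF pathway (other ligands, coreceptors, transducers, feedback genes and targets), 62 were in the table. In fibroblast-like over luminal-like cells 22 of 48 compared were at least 2-fold higher and 4 lower in set 1, where 25.5% of all features were higher and 22.1% lower. In set 2 it was 23 of 50 higher and 3 lower, against 27.4% and 16.3% of all features, with 17 genes higher in both sets. The ETS factors Etv1 and Etv5, which FGF signalling induces, were among these 17. Etv1 stood at 25.4 against 0.373 CPM in set 1 and at 20.1 against 0.096 CPM in set 2, and Etv5 at 8.45 against 0.124 CPM and at 11 against 0.416 CPM. Flrt2, a membrane protein that binds FGF receptors, stood at 58.0 against 0.069 CPM and 35.4 against 0.072 CPM, and the ligand Fgf9 at 3.38 against 0.152 CPM and 11 against 0.176 CPM. The 2 genes lower in both sets were Fgfbp1, a carrier that releases FGFs from the matrix (4.51 against 31.1 CPM and 0.957 against 3.02 CPM), and Flrt3 (16.3 against 88.3 CPM and 7.65 against 25.8 CPM).

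In basal-like over luminal-like cells 7 of 43 of these pathway genes were higher and 6 lower in set 1, against 11.4% and 25.8% of all features, and 10 of 42 higher and 6 lower in set 2, against 21.6% and 27.5%. Among the 6 higher in both sets, the heparan sulfate proteoglycan Sdc1 stood at 665 against 237 CPM in set 1 and at 450 against 25.2 CPM in set 2. Gpc4, another such proteoglycan, stood at 34.5 against 1.98 CPM and 18.8 against 3.89 CPM, and Etv4 at 5.12 against 0.401 CPM and 7.53 against 0.464 CPM. The 3 genes lower in both sets were Mapk3, the ERK1 kinase (26.6 against 103 CPM and 38.0 against 135 CPM), and the immediate early genes Fos and Egr1. By EGFP, 3 of 41 were higher and 1 lower in luminal-like cells of set 1, against 6.18% and 3.09% of all features. In set 2 it was 7 of 38 higher and 2 lower, against 10.9% and 16.9%, with Fos the 1 gene higher in both sets (524 against 217 CPM and 549 against 231 CPM). In basal-like cells 1 of 45 was higher and 3 lower in set 1, against 4.34% and 5.35% of all features. In set 2 it was 1 of 37 higher and 3 lower, against 3.8% and 7.69%, with Flrt3 lower in both sets (4.23 against 18.4 CPM and 13.4 against 30.6 CPM).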

How the data were processed

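The 2 libraries were made with 10x Genomics Chromium single cell 3′ chemistry from digested prostate, and the submitters' processing notes name Cell Ranger 3.1.0 and the build mm10. The authors deposited 1 table of natural log values, ln(1 + 10000 × UMI / cell total), for 19320 features and 15742 cells. Every value above 0 came back as a whole UMI number within 0.001, with totals of 134850345 UMIs in set 1 and 187280119 in set 2 (medians of 17235 and 14824.5 UMIs per cell). The deposited table does not itself say which suffix is which tissue, so the match of set to tissue rests on cell numbers and means per cell.

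Doublets were scored with scanpy 1.11.5 (Scrublet), whose automatic limit called 0 cells, so a score of 0.25 was used, which left out 155 cells (2.45%) of set 1 and 175 (1.86%) of set 2. Cells were integrated over 20 dimensions and clustered in Seurat 5.3.0 (R 4.3.3) with 30 principal components at resolution 0.5, on 1982 variable features from which all genes compared here were removed. UMIs were summed per class and barcode set. Cells are not replicates and each group is 1 library, so no test was made and ratios with exact conditional binomial intervals (95%), exact Poisson intervals of levels and Clopper-Pearson intervals of shares are given. A class at 0 was bounded by 3 UMIs. For shares, cells were thinned to 3000 UMIs. On simulated Poisson counts of 11447 features for fibroblast-like over luminal-like cells of set 2 the interval held the true ratio for 95.9% of features. Of the features simulated without a change, 4.2% passed 2-fold. The simulated counts carried no spread between cells or libraries, so this checks the calculation of the interval only.

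Genes of the pathway lists were named where they passed in the same direction in both sets, up to 5 per direction by mean log2 ratio, of which some are described. The genes and lists were chosen with earlier results of these data known. Alternatives covered doublets, clustering, scaling, cell weights, the low-count filter and the EGFP limit. Promoter windows are from RefSeq (GRCm38.p6).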

Additional observations from a re-analysis of the deposited data

Results flagged for a closer look

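Fgf1 was the one gene of the 10 whose basal-like over luminal-like ratio passed counting error in opposite directions in the 2 barcode sets. The log2 ratio was -0.81 (19.5 against 34.1 CPM) in set 1 and 3.77 (91.5 against 6.71 CPM) in set 2. Basal-like cells were 4.69-fold higher and luminal-like cells 5.08-fold lower in set 2 than in set 1, so both sides of the ratio differed. The difference between the sets was not tested, because each set is 1 library. The luminal-like cells of set 1 and set 2 came mostly from different clusters.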

How the results depend on the processing

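No paired analysis was possible because the labels give no replicate numbers and every group holds a single library. Of 116 counts of genes past 2-fold recomputed under an alternative, 99 stayed within 1.5 times, 17 moved and 0 reversed. Of 777 single ratios 723 stayed within their interval, 54 moved and 0 changed sign with a call. For EGFP in luminal-like cells of set 1 the count of 2 was 1 with doublets kept, 1 at resolution 1.0, 0 with all cells above the EGFP limit, 0 within clusters with all cells above the limit and 0 without the cycling cluster. In set 2 the count of 3 was 1 without integration, 1 with the limit at the 99th percentile, 1 within clusters with all cells above the limit and 5 with seminal vesicle-like cells joined to luminal-like. For EGFP in basal-like cells the count of 1 in set 1 was 0 with doublets kept and 0 without integration, and the count of 3 in set 2 was 1 with all cells above the limit. Between the sets the fibroblast-like count of 1 was 0 with every cell weighing the same and 2 with no filter on low counts, the basal-like count of 1 was 2 with no filter, and the leukocyte-like count of 1 was 2 with doublets kept and 2 with every cell weighing the same. The causes were not tested. The joins with seminal vesicle-like cells, the removal of the cycling cluster and the comparison within clusters with all cells above the limit were chosen after seeing the data. The planned comparison within luminal-like clusters, at 50 EGFP-high and 50 EGFP-low cells each, left 0 clusters. Fgfr4 had no more than 16 UMIs in any class of either set, and the fibroblast-like cells numbered 198 and 361.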

Other observations

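The genes whose levels lay closest to those of each FGF gene were sought over 15 pools of class and barcode set among 11701 genes, with Pearson's r on log2(CPM + 10) as a description, since pools of 1 set share a library and a depth. For Fgf2 they were Reck (r = 0.997), Isl1 (0.995) and Lamc3 (0.993), and for Fgf7 they were Nfasc, 1700086L19Rik and Igsf10, all above 0.998. For Fgf10 they were Itgbl1 (0.981), Crispld2 (0.961) and Htr1d (0.961). For Fgf1 they included Cep170b (0.912) and Lgr4 (0.907), and its r with Fgfr2 was 0.710, against -0.229 with Fgf2. Fgf2, Fgf7 and Fgf10 correlated with each other at 0.928 to 0.958, which mostly restates their high levels in the fibroblast-like pools of both sets. The 10 CPM added to each level leaves little of the Fgf10 difference in the epithelium visible here. Their r with Fgfr2 was weak, at -0.171, -0.051 and -0.082, and no relation is read from it.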
